A study of Homo sapiens with 4 samples.

Results

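The epithelial to mesenchymal switch genes described here are 10 human genes, CDH1, CDH2, VIM, FN1, ZEB1, SNAI2, GRHL2, OVOL1, ESRP1 and ESRP2, chosen by symbol among 18840 genes in a table of poly(A) RNA sequencing. The RNA came from MCF10A, a breast epithelial cell line that grows without forming tumours. Its cells stably carried pBabe, a retroviral expression vector, that held MYC (pBabe-MYC), the microRNA miR-105 (pBabe-miR-105), green fluorescent protein (pBabe-GFP) or no insert (pBabe vector). All cells were grown in DMEM/F12 medium with EGF, insulin, hydrocortisone, cholera toxin and horse serum. Each construct had 1 library, so no group has a replicate and no difference below has a replicate check. The sources used here do not say whether a culture was a pool of transduced cells or 1 clone. All 10 genes were found in the table, and all 10 passed the filter on low values, a mean of at least 1 CPM (reads scaled to the size of the library) over the 4 libraries, which 12484 genes passed.

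In an epithelial to mesenchymal transition, cells give up the junctions and polarity of an epithelium and take on the loose, motile form of mesenchymal cells. E-cadherin (CDH1) holds epithelial cells together, while N-cadherin (CDH2), the intermediate filament vimentin (VIM) and the matrix glycoprotein fibronectin (FN1) are widely used marks of the mesenchymal state. ZEB1 and SNAI2 (Slug) are zinc finger repressors that bind E-box sequences in the CDH1 promoter. GRHL2 and OVOL1 are transcription factors of the epithelial state that act against ZEB1, and ESRP1 and ESRP2 are RNA-binding proteins that set epithelial patterns of splicing. MCF10A cells have been used in many studies of this switch, because they are epithelial but can be moved along it by TGF-beta or by culture at low density.

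The sequence of the microRNA that 1 of the libraries is named for is shown first. The mature strand is encoded by MIR105-1 at chrX:152392265-152392287 on the minus strand and by a second copy, MIR105-2 (RefSeq, GRCh38.p14), and its capitals mark the seed, bases 2 to 8.
hsa-miR-105-5p: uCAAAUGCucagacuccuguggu

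Promoter sequence is shown for the members known as marks of the mesenchymal state. The 250 bases before a start site of each (RefSeq, GRCh38.p14) follow, with 3 motifs in capitals: TGACGTCA (the cyclic AMP response element, CRE), CCAAT with its complement ATTGG, and TATAA with its complement TTATA. These 3 motifs were chosen after the sequences had been read. FN1 held the CRE 183 bases, CCAAT 162 bases and TATAA 28 bases before the start. VIM held TTATA 217 bases before the start, and CDH2 held ATTGG 76 bases before it. A second start of CDH2, whose window is not printed, had CCAAT 67 bases before it, and the overlapping TTATA and TATAA 33 and 32 bases before it. Of 35116 promoter windows in the table, each with 250 bases before and 50 bases after a start, 1.85% held the CRE, 34.6% CCAAT and 20.4% TATAA on either strand.
FN1 (chr2:215436069-215436318, minus strand): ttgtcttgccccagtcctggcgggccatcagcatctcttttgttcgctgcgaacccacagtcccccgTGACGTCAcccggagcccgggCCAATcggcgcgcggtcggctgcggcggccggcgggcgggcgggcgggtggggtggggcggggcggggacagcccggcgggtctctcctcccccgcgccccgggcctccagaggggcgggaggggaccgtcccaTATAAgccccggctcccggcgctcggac
VIM (chr10:17227991-17228240, plus strand): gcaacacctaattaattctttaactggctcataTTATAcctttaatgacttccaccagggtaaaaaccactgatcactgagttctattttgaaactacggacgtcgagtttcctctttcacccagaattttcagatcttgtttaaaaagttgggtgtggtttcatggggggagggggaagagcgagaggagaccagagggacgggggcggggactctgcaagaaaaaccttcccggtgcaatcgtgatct
CDH2 (chr18:28177131-28177380, minus strand): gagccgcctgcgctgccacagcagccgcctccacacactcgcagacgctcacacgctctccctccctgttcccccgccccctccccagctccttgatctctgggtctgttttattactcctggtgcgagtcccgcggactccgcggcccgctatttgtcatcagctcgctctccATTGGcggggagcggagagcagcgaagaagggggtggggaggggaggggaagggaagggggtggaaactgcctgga

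The table of promoters held 11 windows for 4 of the genes, CDH2, VIM, FN1 and ZEB1. The E-box that ZEB and SNAI proteins bind (CACCTG or CAGGTG) was in 2 of these 11 windows, both of them among the 7 windows of ZEB1, and in 20.6% of all windows. The GRHL motif AACCGGTT was in 0 of the 11 and in 0.134% of all windows. No match says only that these letters are not in the window.

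Read totals were 9795159 in the library labelled MYC and 6859698 in that labelled miR-105, with 14025115 in the GFP library and 9138429 in the vector library, so that 1 read was worth between 0.0722 and 0.157 CPM. The MYC transcript, which checks the labels, had 232 CPM in the library labelled MYC and 463 CPM in the library labelled miR-105, against 198 CPM in the GFP library and 207 CPM in the vector library. The MYC mRNA was thus highest in the miR-105-labelled library. Its level in the library labelled MYC was 1.17-fold (95% interval 1.11 to 1.24) above GFP and 1.12-fold (1.05 to 1.19) above vector. For this reason both libraries are called by their labels throughout. Whether labels were exchanged, or reads of the transgene were not counted, was not tested. Of 10 defining markers of mammary epithelium, 9 were in the table, all had reads in every library, and their summed level was 7045, 7478, 8455 and 10214 CPM in the libraries labelled MYC and miR-105 and in the GFP and vector libraries. The list includes the member CDH1, and most of the sum was KRT5 and KRT17, which went opposite ways. KRT5 had 4138, 4654, 1614 and 1757 CPM and KRT17 1777, 766, 5131 and 6927 CPM in that order of libraries. The median log2 fold of the 9 markers, averaged over the controls, was 0.39 and 0.58 in the libraries labelled MYC and miR-105. Over all measured genes it was 0.04 and 0.01. Fibroblast markers summed to between 118 and 216 CPM, with COL3A1 at 0 in every library, and PDGFRA, LUM and THY1 below 0.5 CPM in every library. Most of that sum was DCN, with 141, 16.0, 69.4 and 117 CPM, and FAP, with 2.56, 90.2, 126 and 85.0 CPM, in the libraries labelled MYC and miR-105 and in GFP and vector. Immune markers summed to between 20.4 and 88.9 CPM, endothelial markers to between 3.61 and 92.2 CPM, and melanocyte and neural markers to between 8.82 and 60 CPM, with TYR and S100B at 0 throughout. CSF1R of the immune list had 9.86, 20.5, 75.1 and 66.3 CPM and MITF of the melanocyte list 8.25, 19.0, 57.1 and 50.4 CPM in the same order. Of these lists 3 of 10 fibroblast, 2 of 7 immune, 2 of 6 endothelial and 2 of 6 melanocyte and neural markers passed the filter. The highest endothelial sum, in the library labelled MYC, was mostly KDR with 88.9 CPM. The other measured endothelial marker, PECAM1, went the opposite way there, with 2.46 CPM against 15.9 CPM in GFP and 12.8 CPM in vector. In the library labelled miR-105 both were low, KDR and PECAM1 each with 1.73 CPM. CD68, the other measured immune marker, had 8.34, 18.8, 13.7 and 19.5 CPM in the libraries labelled MYC and miR-105 and in GFP and vector. It did not follow CSF1R in the library labelled miR-105. The part of other cell types in the results was not tested. In bulk RNA, fewer cells of a type and less RNA per cell cannot be told apart.

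Levels are given in CPM, with exact Poisson or exact conditional binomial (Clopper-Pearson) 95% intervals. They cover counting error only, and reads without molecular identifiers cannot be taken for independent molecules. A gene was counted as higher or lower in the library labelled MYC or miR-105 when it differed at least 2-fold, on the log2(CPM + 0.5) scale, from the GFP library and from the vector library in the same direction. These comparisons share their control libraries, so their counts are not independent of each other.

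In the library labelled MYC, 7 of the 10 genes passed this threshold. CDH2 and VIM were higher and CDH1, FN1, SNAI2, GRHL2 and OVOL1 were lower, while ESRP1, ESRP2 and ZEB1 stayed inside it. Over all measured genes 9.03% were higher, 10.4% lower and 19.4% either. The median log2 fold of the 10 genes was -1.19, against 0.04 over all measured genes, and it does not depend on the value given to GRHL2, which had 0 reads and lies below it. The library labelled miR-105 had 2 of the 10 past the threshold, CDH2 higher and OVOL1 lower, with 14.7% of all measured genes higher, 16.6% lower and 31.3% either. That share of 2 in 10 lies below the share over all genes, and the median log2 fold of the 10 genes was 0.00, against 0.01 over all measured genes.

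**Figure D1:**
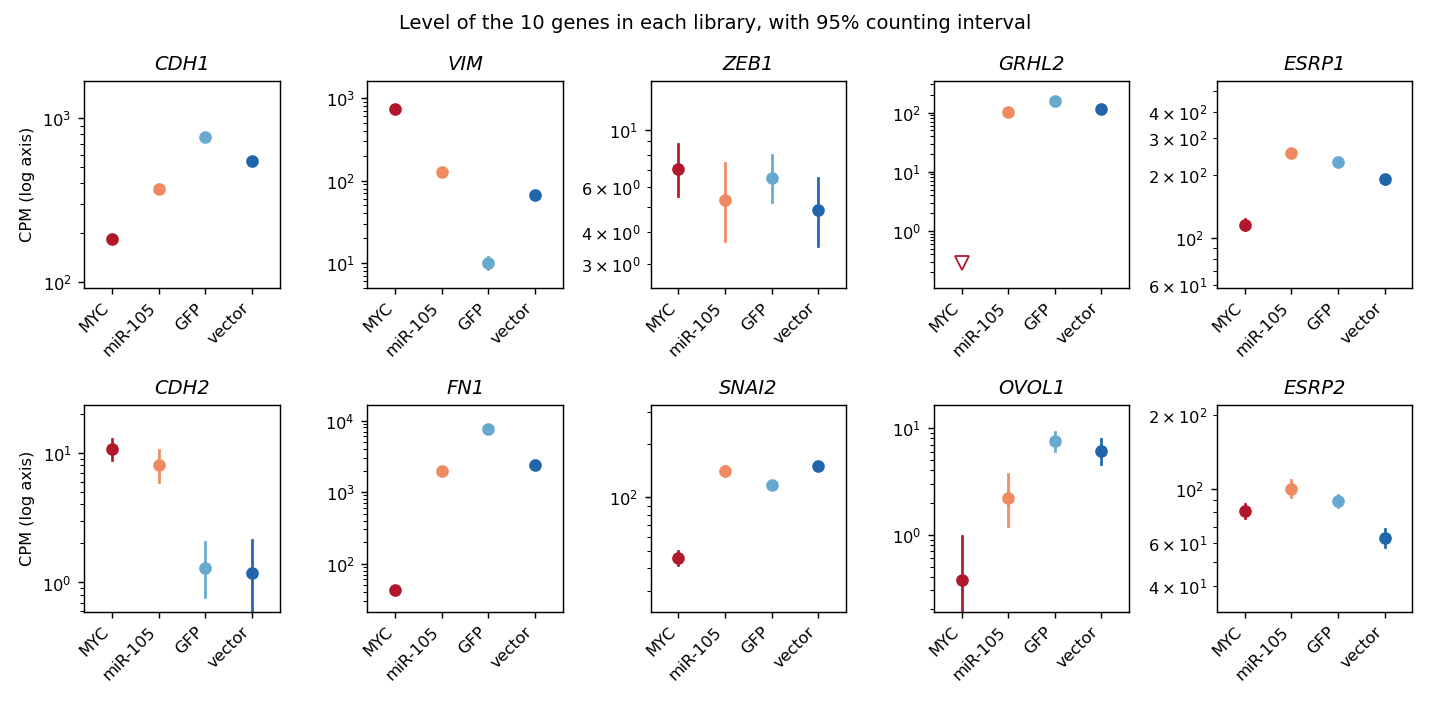
Level of each of the 10 genes (CPM, log axis) in the libraries labelled MYC and miR-105 and in the GFP and vector libraries, 1 library each; bars are exact Poisson 95% intervals, hidden where smaller than the point, and the open triangle marks the limit that 0 reads allow (0.284 CPM). VIM is highest and FN1, GRHL2 and CDH1 are lowest in the library labelled MYC, and CDH2 is higher in both labelled libraries than in either control.

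Among the junction genes, CDH1 was lower and CDH2 higher in the library labelled MYC. CDH1 lies on chromosome 16 (68737225 to 68835548, plus strand; this and the other gene positions are from GENCODE v29, GRCh38). It had 183 CPM in the library labelled MYC and 368 CPM in the library labelled miR-105, against 768 CPM in the GFP library and 549 CPM in the vector library. That labelled MYC was lowest, that labelled miR-105 next, and both controls lay above them. Against GFP the library labelled MYC was 4.2-fold (4.0 to 4.41) lower and against vector 3.0-fold (2.85 to 3.16) lower. The library labelled miR-105 was 2.09-fold (2.0 to 2.18) below GFP but 1.49-fold (1.42 to 1.57) below vector, so that it passed the threshold against GFP alone. The controls themselves differed, with GFP 1.40-fold (1.35 to 1.45) above vector.

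CDH2, the N-cadherin of mesenchymal and neural cells on chromosome 18 (27950966 to 28177446, minus strand), was a rare transcript here. It had 113 reads (10.7 CPM) in the library labelled MYC and 51 reads (8.0 CPM) in the library labelled miR-105, against 18 reads (1.30 CPM) in the GFP library and 11 reads (1.19 CPM) in the vector library. Both labelled libraries stood above both controls, whose intervals overlapped. In the MYC-labelled library it was 8.24-fold (4.98 to 14.4) above GFP and 9.01-fold (4.85 to 18.6) above vector. In the miR-105-labelled library it was 6.15-fold (3.53 to 11.2) above GFP and 6.73-fold (3.46 to 14.3) above vector. Between the libraries labelled MYC and miR-105 the ratio of 1.34 had an interval (0.954 to 1.90) that spans 1. CDH2 passed the threshold upward in each labelled library.

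Set against each other per kilobase of exon, CDH1 remained the larger transcript in every library. Its level per kilobase was 15.3 times that of CDH2 (12.6 to 18.6) in the library labelled MYC, 41.1 times (31.2 to 55.4) in that labelled miR-105, 528 times (334 to 891) in the GFP library and 412 times (230 to 827) in the vector library. The lead of CDH1 was thus smallest in the library labelled MYC. P-cadherin (CDH3), a classical cadherin that marks basal and myoepithelial cells, had 246 CPM in the library labelled MYC and 335 CPM in the library labelled miR-105, against 248 CPM in the GFP library and 203 CPM in the vector library. The level of CDH1 over that of CDH3 per kilobase was 0.752 (0.708 to 0.798) in the library labelled MYC and 1.11 (1.05 to 1.18) in the library labelled miR-105, against 3.13 (3.02 to 3.26) in GFP and 2.73 (2.59 to 2.88) in vector. In the library labelled MYC the commonest cadherin transcript per kilobase was therefore CDH3.

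Of 9 cadherins listed, 6 were measured. CDH2 and CDH13 were higher and CDH1 lower in the library labelled MYC, and CDH2 and CDH13 were higher in that labelled miR-105. Medians of this list were 0.38 and 0.42, against 0.04 and 0.01 over all measured genes, of which 19.4% and 31.3% passed the threshold. CDH13 (T-cadherin, which is tied to the membrane by a lipid anchor) had 97.8 CPM in the library labelled MYC and 8.63 CPM in the library labelled miR-105, against 2.02 CPM in the GFP library and 3.14 CPM in the vector library. Its fold in the library labelled MYC was 48.4 (33.3 to 73.2) against GFP and 31.2 (21.6 to 46.8) against vector, larger than the fold of CDH2. CDH24 was between 6.16 and 13.4 CPM and CDH4 between 0.784 and 1.95 CPM in the 4 libraries. CDH5, CDH6 and CDH11 had at most 5 reads in any library. As a share of the summed cadherin level per kilobase, CDH1 made up 36% in the library labelled MYC, 50.5% in that labelled miR-105, 74.4% in the GFP library and 71.9% in the vector library. The summed level itself was 102, 146, 208 and 153 CPM per kilobase in the same order.

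**Figure D2:**
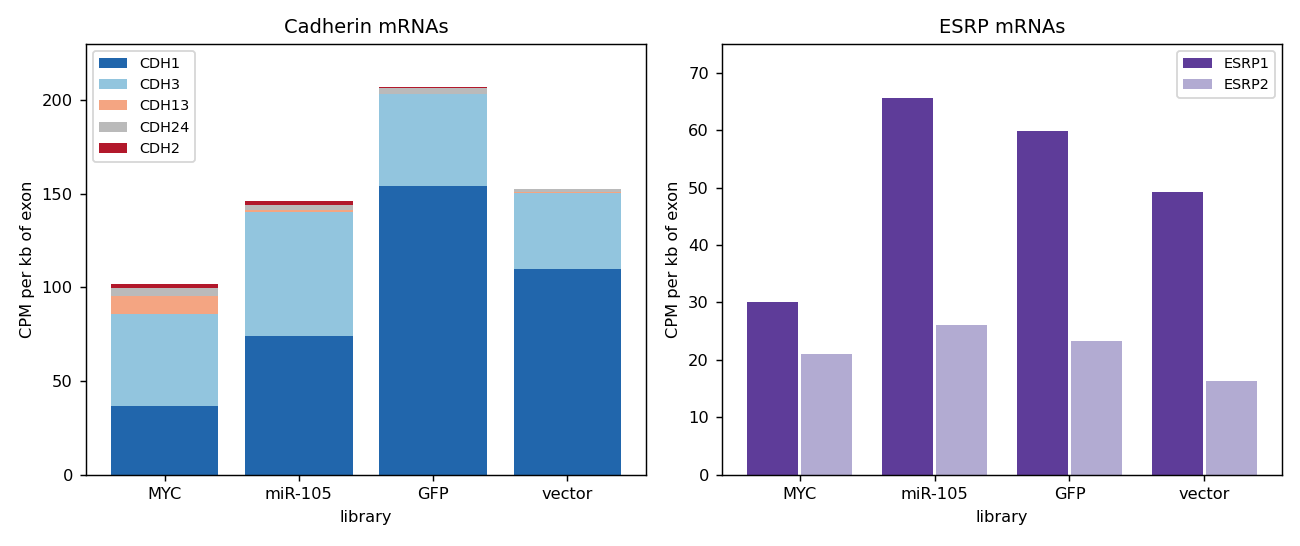
Left, stacked level (CPM per kilobase of exon) of the 5 cadherin mRNAs with the largest shares, and right, level of ESRP1 and ESRP2 on the same scale, in the libraries labelled MYC and miR-105 and in the GFP and vector libraries, 1 library each, without error bars. CDH1 makes up 36% of the cadherin level in the library labelled MYC and 74.4% in the GFP library, and ESRP1 is the larger ESRP transcript in all 4 libraries.

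The 2 mesenchymal marks VIM and FN1 went opposite ways in the library labelled MYC. VIM, on chromosome 10 (17228259 to 17237593, plus strand), had 731 CPM there and 128 CPM in the library labelled miR-105, against 9.97 CPM in the GFP library and 66.2 CPM in the vector library. All 4 levels were apart by more than their counting intervals, and the controls were far from each other. The VIM level in the library labelled MYC was 73.4-fold (62.0 to 87.5) above GFP and 11.1-fold (10.2 to 12.0) above vector. In the library labelled miR-105 VIM was 12.8-fold (10.7 to 15.4) above GFP but 1.93-fold (1.73 to 2.14) above vector, just inside the threshold. The GFP library was 6.64-fold (5.51 to 8.04) below vector, so the size of any VIM difference depended on which control was used.

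FN1, on chromosome 2 (215360440 to 215436172, minus strand), encodes fibronectin, which cells lay down as matrix fibres and which epithelial cells in culture also secrete. It had 42.5 CPM in the library labelled MYC and 1966 CPM in the library labelled miR-105, against 7563 CPM in the GFP library and 2405 CPM in the vector library. Only the library labelled MYC lay far below the rest, and GFP stood above vector. FN1 in the library labelled MYC was 178-fold (162 to 196) below GFP and 56.6-fold (51.6 to 62.3) below vector. In that labelled miR-105 it was 3.85-fold (3.78 to 3.92) below GFP and 1.22-fold (1.20 to 1.25) below vector. FN1 had the highest mean level of the 10 genes, above 99.9% of measured genes, and the widest range apart from GRHL2, which had a library at 0.

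Per kilobase, the level of VIM over that of FN1 was 83.8 (76.2 to 92.4) in the library labelled MYC and 0.316 (0.294 to 0.339) in the library labelled miR-105, against 0.00642 (0.00539 to 0.00758) in GFP and 0.134 (0.123 to 0.145) in vector. The order of the pair was reversed in the library labelled MYC alone. Set against CDH1, VIM stood at 10.7 times (10.1 to 11.2) its level per kilobase in the library labelled MYC and at 0.923 times (0.852 to 1.00) in the library labelled miR-105. In GFP the ratio was 0.0346 (0.0290 to 0.0409) and in vector 0.321 (0.295 to 0.349). FN1 stood at 0.127 times (0.114 to 0.141) the level of CDH1 in the library labelled MYC, 2.92 times (2.80 to 3.06) in the library labelled miR-105, 5.39 times (5.28 to 5.50) in GFP and 2.40 times (2.33 to 2.47) in vector.

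Neither of the repressors of CDH1 was higher in the library labelled MYC by the threshold. ZEB1, on chromosome 10 (31318495 to 31529814, plus strand), had 74 reads (7.02 CPM) in the library labelled MYC and 34 reads (5.33 CPM) in the library labelled miR-105, against 90 reads (6.50 CPM) in the GFP library and 45 reads (4.86 CPM) in the vector library. Each pairwise interval spans 1, so no order of the 4 libraries can be read at this depth. The interval against vector in the library labelled MYC, 0.982 to 2.14 around a ratio of 1.44, leaves room for a level up to 2.14-fold higher. ZEB1 in the library labelled miR-105 was 1.22-fold (0.813 to 1.87) below GFP and 1.10-fold (0.681 to 1.75) above vector.

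SNAI2, on chromosome 8 (48917604 to 48921740, minus strand), is expressed in basal mammary cells as well as in mesenchyme. It had 45.8 CPM in the library labelled MYC and 140 CPM in the library labelled miR-105, against 118 CPM in the GFP library and 150 CPM in the vector library. The first of these lay below the others, and the level in the library labelled miR-105 lay between the controls. The MYC-labelled library was 2.58-fold (2.33 to 2.86) below GFP and 3.27-fold (2.95 to 3.64) below vector. SNAI2, known as a repressor of CDH1, and CDH1 itself were thus lower in the same library. Per kilobase SNAI2 was 17.3 times (13.5 to 22.4) as high as ZEB1 in the library labelled MYC, 69.6 times (49.4 to 101) in the library labelled miR-105, 48.2 times (39.0 to 60.3) in GFP and 81.7 times (60.7 to 113) in vector.

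The other members of these families did not pass the threshold. ZEB2 had 16.0 CPM in the library labelled MYC and 9.57 CPM in the library labelled miR-105, against 13.4 CPM in GFP and 14.3 CPM in vector, and no comparison with a control reached 2-fold. SNAI1 (Snail) had between 2.35 and 3.61 CPM, with intervals that span 1 in every comparison with a control. SNAI3 had at most 3 reads in any library.

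The epithelial factors GRHL2 and OVOL1 were lowest in the library labelled MYC. GRHL2, on chromosome 8 (101492432 to 101669726, plus strand), had 0 of 9795159 reads there, which allows a level of up to 0.284 CPM by a floor of 3 reads, or 0.350 CPM by the upper limit of the exact Poisson interval. It had 645 reads (101 CPM) in the library labelled miR-105, against 2152 reads (155 CPM) in the GFP library and 1047 reads (113 CPM) in the vector library. The other libraries thus held ample GRHL2 reads, and that labelled MYC held none. Against the floor of 3 reads, the library labelled MYC was at least 547-fold lower than GFP, at least 398-fold lower than vector and at least 356-fold lower than the library labelled miR-105. These bounds would be smaller against the Poisson limit. The library labelled miR-105 was 1.54-fold (1.41 to 1.68) below GFP and 1.12-fold (1.01 to 1.24) below vector.

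OVOL1, on chromosome 11 (65787022 to 65797219, plus strand), had 4 reads (0.379 CPM) in the library labelled MYC and 14 reads (2.2 CPM) in the library labelled miR-105, against 104 reads (7.51 CPM) in the GFP library and 56 reads (6.05 CPM) in the vector library. Both labelled libraries were below both controls, which did not differ beyond counting error. OVOL1 in the MYC-labelled library was 19.8-fold (7.51 to 74.1) below GFP and 16.0-fold (5.90 to 60.6) below vector, and in the miR-105-labelled library it was 3.42-fold (1.95 to 6.48) below GFP and 2.76-fold (1.51 to 5.36) below vector. An antisense gene overlaps 1044 bases of its exons, as shorter ones do in CDH1, CDH2, VIM and GRHL2. Whether strand was used in counting is not given, so reads of such partners cannot be told apart.

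Among the relatives of both factors, GRHL1 and OVOL2 were lower in both labelled libraries. GRHL1 had 2.28 CPM in the library labelled MYC and 5.80 CPM in the library labelled miR-105, against 42.9 CPM in GFP and 23.6 CPM in vector, so both labelled libraries were below both controls. OVOL2 had 5.97 CPM in the library labelled MYC and 22.6 CPM in the library labelled miR-105, against 52.2 CPM in GFP and 68.9 CPM in vector, again with both labelled libraries below both controls. GRHL3, a rare transcript, had 35 reads in the library labelled MYC and 2 in the library labelled miR-105, against 17 in GFP and 14 in vector. The MYC-labelled library was 2.70-fold (1.47 to 5.14) above GFP and 2.19-fold (1.15 to 4.41) above vector, and the miR-105-labelled library was 3.91-fold (0.929 to 34.9) and 4.82-fold (1.11 to 43.7) below them. OVOL3 had at most 3 reads in any library.

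ESRP1 and ESRP2 stayed within 2-fold of both controls in both labelled libraries. ESRP1, on chromosome 8 (94641074 to 94707466, plus strand), had 116 CPM in the library labelled MYC and 254 CPM in the library labelled miR-105, against 231 CPM in the GFP library and 191 CPM in the vector library. It was lowest in the library labelled MYC and highest in the library labelled miR-105. Its level in that labelled MYC was 1.99-fold (1.86 to 2.13) below GFP, at the edge of the threshold, and 1.64-fold (1.52 to 1.77) below vector. ESRP2, on chromosome 16 (68229111 to 68238102, minus strand), had 81.2 CPM in the library labelled MYC and 99.9 CPM in the library labelled miR-105, against 89.3 CPM in GFP and 62.9 CPM in vector. In the library labelled MYC it lay between the controls, 1.10-fold (1.01 to 1.20) below GFP and 1.29-fold (1.16 to 1.44) above vector. NFATC3 on the opposite strand, which is also in the table, and AC020978.5 on the same strand overlap exons of ESRP2, by at most 446 bases.

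Per kilobase, ESRP1 made up 58.7% of the summed ESRP level in the library labelled MYC, 71.6% in the library labelled miR-105, 72.0% in GFP and 75% in vector. The sum of both was 51.2 CPM per kilobase in the library labelled MYC and 91.7 in the library labelled miR-105, against 83.1 in GFP and 65.7 in vector. ESRP transcripts were thus still present in the library with no GRHL2 read, at a summed level below that of every other library. Of 9 measured genes whose exons ESRP proteins are known to regulate, SLC37A2 and GRHL1 were lower in the library labelled MYC and GRHL1 alone was lower in the library labelled miR-105, with 10.4% and 16.6% of all measured genes lower in these libraries. The medians of the 9 were -0.32 and 0.19, against 0.04 and 0.01 over all measured genes. Gene totals do not show which exons were used.

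**Figure D3:**
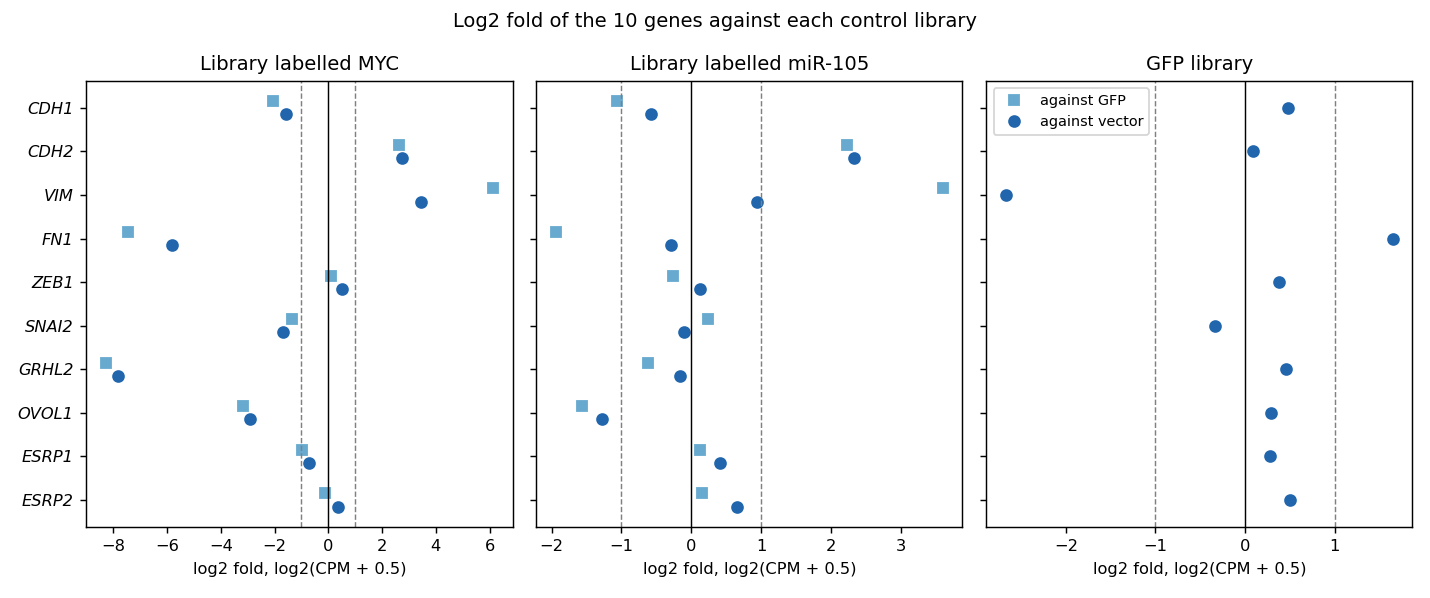
Log2 fold, on the log2(CPM + 0.5) scale, of each of the 10 genes in the libraries labelled MYC and miR-105 against GFP (squares) and against vector (circles), and in GFP against vector; the 3 panels have different axis ranges, dashed lines mark 2-fold, and GRHL2 in the left panel comes from 0 reads. In the left panel 7 genes have both points beyond the dashed lines on 1 side, in the middle panel CDH2 and OVOL1 do, and in the right panel VIM and FN1 lie beyond them.

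The controls differed from each other at 2 of the 10 genes. FN1 was 3.14-fold (3.10 to 3.19) higher and VIM 6.64-fold lower in GFP than in vector, where 3.06% of all measured genes were at least 2-fold higher, 1.03% lower and 4.09% either. The median log2 fold of GFP against vector was 0.34 over the 10 genes and 0.03 over all measured genes. CDH1, GRHL2, ESRP1 and ESRP2, all of the epithelial side, were between 1.21-fold and 1.42-fold higher in GFP, with intervals above 1, and SNAI2 was 1.27-fold (1.18 to 1.36) lower. CDH2, ZEB1 and OVOL1 had intervals that span 1.

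Set directly against the library labelled miR-105, the library labelled MYC had 1 of the 10 genes at least 2-fold higher (VIM, 5.74-fold, 5.34 to 6.17) and 6 at least 2-fold lower. Over all measured genes 19.8% were higher, 19.0% lower and 38.8% either, and the median log2 fold was -1.07 over the 10 genes and -0.05 over all measured genes. The 6 lower genes were GRHL2, FN1 (46.3-fold, 42.1 to 51.0), OVOL1 (5.79-fold, 1.82 to 24.2), SNAI2 (3.06-fold, 2.74 to 3.42), ESRP1 (2.19-fold, 2.03 to 2.36) and CDH1 (2.01-fold, 1.89 to 2.14). CDH1 came inside the threshold with DESeq2 size factors (log2 fold -0.97, 6 genes past it) and with the values as deposited (6 genes). Scaling by library totals alone brought both CDH1 and ESRP1 inside it (-0.79 and -0.91, 5 genes).

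Within a library the 10 genes took different orders per kilobase. VIM led in the library labelled MYC with 392 CPM per kilobase, ahead of CDH1 with 36.7 and ESRP1 with 30, and FN1 had 4.67. FN1 led in the others, with 216 CPM per kilobase in the library labelled miR-105, 832 in GFP and 264 in vector, and CDH1 was second in each of the 4 libraries. VIM had 68.3 CPM per kilobase in the library labelled miR-105, 5.34 in GFP and 35.4 in vector, behind FN1 and CDH1 in each of these. CDH2, ZEB1 and OVOL1 were at or below 2.41 CPM per kilobase everywhere.

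The genes whose profiles over the 4 libraries lay nearest to those of the members were looked up for the 6 members with a log2 range of at least 2. The measure was the Euclidean distance between log2(CPM + 0.5) profiles centred on their own means, with 4 points each, so that near profiles are easily found. FN1 and GRHL2 had few near neighbours, with 1 and 3 measured genes within a distance of 1, and VIM had 0. The profiles were not scaled, so a gene with a wide range is bound to have few genes within a fixed distance. The log2 range was 7.46 for FN1, 8.28 for GRHL2 and 6.13 for VIM, against 2.07 for CDH1, 2.73 for CDH2 and 3.19 for OVOL1. These numbers of neighbours therefore say little beyond the range. For FN1 the nearest were MACC1 (0.67) and SCEL (1.01), and for GRHL2 it was A2ML1 (0.36). GRHL2 had 0 reads and A2ML1 0.190 CPM in the library labelled MYC. The range of GRHL2 and its distance to A2ML1 thus depend on the 0.5 added to each CPM. IFI44L (1.31) and THBD (1.42) were nearest to VIM. CDH1, with 923 genes within a distance of 1, had GPR153 (0.10) and PTPN21 (0.13). CDH2 had CISH (0.16) and NRARP (0.26), and OVOL1 had SDK1 (0.14) and VSIG10 (0.18).

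Other genes of the switch were read from lists that in part hold the members themselves. Of 18 measured transcription factors that drive the transition, TWIST2 was higher in the library labelled MYC, and SNAI2, PRRX2, SOX9, FOXQ1 and SOX4 were lower, with a median log2 fold of 0.24. Over all measured genes 9.03% were higher and 10.4% lower there, with a median of 0.04. TWIST2, a basic helix-loop-helix factor, had 8.72 CPM in the library labelled MYC and 4.08 CPM in the library labelled miR-105, against 0.578 CPM in GFP and 1.62 CPM in vector. PRRX2, a homeobox factor, had 0.284 CPM and 1.41 CPM in the libraries labelled MYC and miR-105, against 35.2 CPM in GFP and 41.2 CPM in vector, and was low in both. SOX9, which directs chondrocyte and progenitor fates, had 1.90 CPM in the library labelled MYC but 108 CPM in the library labelled miR-105, against 32.7 CPM in GFP and 22.2 CPM in vector. SOX9 thus stood on opposite sides of the controls in the labelled libraries. The library labelled miR-105 had 4 of the 18 higher and 5 lower, with a median of -0.05, where all measured genes had 14.7% higher and 16.6% lower and a median of 0.01. HMGA2, a chromatin protein of embryonic cells, was 15.5-fold (12.3 to 19.7) above GFP and 9.56-fold (7.66 to 12.0) above vector there, and ETS1 was 3.81-fold (3.44 to 4.23) and 5.73-fold (4.99 to 6.61) above them. KLF8 was 5.38-fold and RUNX2 3.59-fold below GFP in that library.

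Of 16 measured epithelial regulators, 3 were higher and 6 lower in the library labelled MYC (median -0.64), and 0 were higher and 7 lower in the library labelled miR-105 (median -0.76). The shares over all measured genes were 9.03% higher and 10.4% lower (median 0.04) and 14.7% higher and 16.6% lower (median 0.01) in these libraries. TP63, the p53 relative that maintains basal cells, had 77.2 CPM in the library labelled MYC and 6.12 CPM in the library labelled miR-105, against 14.4 CPM in GFP and 7.14 CPM in vector. CEBPA, a leucine zipper factor, was also higher in the library labelled MYC, with 10.9 CPM against 2.38 CPM in GFP and 2.05 CPM in vector. ELF3, an epithelial ETS factor, had 302 CPM in the library labelled MYC and 46.3 CPM in the library labelled miR-105, against 510 CPM in GFP and 561 CPM in vector. It was the regulator with the largest fold in the library labelled miR-105, 11 (9.81 to 12.4) against GFP. EHF, of the same family, was 4.82-fold (4.35 to 5.35) below GFP there. GATA3, a luminal factor, had 26.5 CPM in the library labelled MYC and 18.2 CPM in that labelled miR-105, against 67.1 CPM in GFP and 71.6 CPM in vector.

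Among 26 genes of epithelial adhesion and polarity, 0 were higher in either labelled library, 9 were lower in the library labelled MYC (median -0.74) and 6 were lower in the library labelled miR-105 (median -0.50). Of all measured genes, 9.03% were higher and 10.4% lower in the first (median 0.04), and 14.7% higher and 16.6% lower in the second (median 0.01). CLDN4, a claudin of tight junctions, had 2.75 CPM in the library labelled MYC and 168 CPM in the library labelled miR-105, against 299 CPM in GFP and 276 CPM in vector. RAB25, a GTPase of epithelial vesicle recycling, had 3.13 CPM in the library labelled MYC and 48.0 CPM in the library labelled miR-105, against 96.3 CPM in GFP and 133 CPM in vector. Both genes were far below every other library in that labelled MYC. CLDN1 had 139 CPM in the library labelled MYC and 27.0 CPM in the library labelled miR-105, against 472 CPM in GFP and 342 CPM in vector, so this claudin was lowest in the library labelled miR-105. PRSS8 (prostasin, a membrane protease) was 4.90-fold (4.50 to 5.35) below GFP in the MYC-labelled library and 4.85-fold (4.36 to 5.41) below it in the library labelled miR-105. SPINT1, an inhibitor of such proteases, was 2.89-fold (2.68 to 3.11) below GFP in the library labelled miR-105. EPCAM, an epithelial surface protein, was not lower in either, with 55.9 CPM in the library labelled MYC and 66.5 CPM in the library labelled miR-105, against 36.8 CPM in GFP and 33.5 CPM in vector.

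The mesenchymal effectors were mixed. Of 25 measured, 4 were higher and 10 lower in the library labelled MYC (median -0.53), and 7 were higher and 4 lower in the library labelled miR-105 (median 0.40). Beside these counts, 9.03% of all measured genes were higher and 10.4% lower in the first library (median 0.04), and 14.7% higher and 16.6% lower in the second (median 0.01). In the library labelled MYC, SPARC (osteonectin) had 290 reads, against 0 reads in the library labelled miR-105, 0 in GFP and 1 in vector. SPARC was at least 127-fold higher than in GFP by the floor of 3 reads, and the ratio to the single read in vector was 254 (45.3 to 10079). It passed the filter only through its reads in the library labelled MYC, so it could only be counted as higher there. THBS1 (thrombospondin) had 64.8 CPM in the library labelled MYC and 2337 CPM in the library labelled miR-105, against 1422 CPM in GFP and 948 CPM in vector. TAGLN, an actin-binding protein of contractile cells, had 6.35 CPM and 23.1 CPM in the libraries labelled MYC and miR-105, against 159 CPM in GFP and 102 CPM in vector. POSTN, a matrix protein, had 0.379 CPM in the library labelled MYC and 114 CPM in the library labelled miR-105, against 5.06 CPM in GFP and 12.9 CPM in vector. NT5E (CD73) had 10.5 CPM in the library labelled MYC and 466 CPM in the library labelled miR-105, against 32.5 CPM in GFP and 38.3 CPM in vector. POSTN and NT5E were thus below both controls in the library labelled MYC and above both in the library labelled miR-105. TNC (tenascin) was 4.01-fold (3.49 to 4.62) above GFP and 34.4-fold (22.9 to 54.1) above vector in the library labelled miR-105, while LOX and COL6A1 were lower there.

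**Figure D4:**
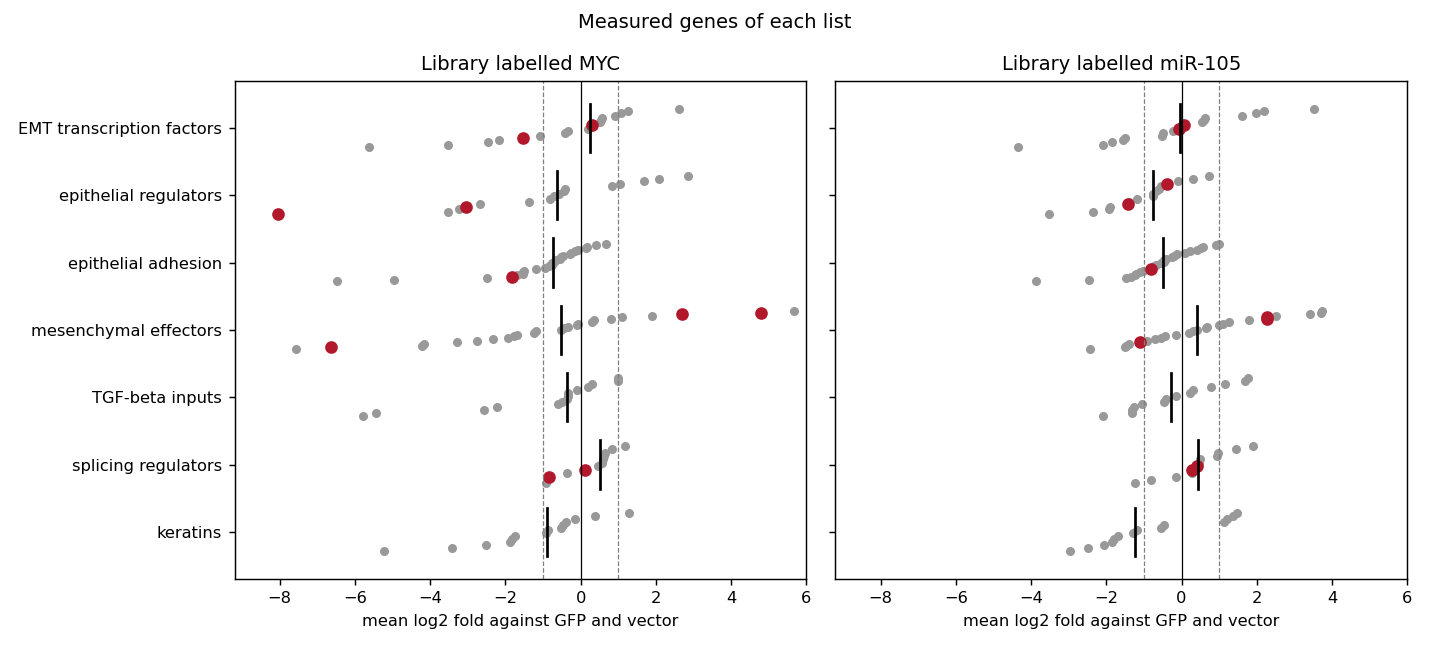
Mean log2 fold against GFP and vector of each measured gene of 7 lists, for the library labelled MYC (left) and the library labelled miR-105 (right), 1 library each; red points are members, short black lines are list medians, and dashed lines mark 2-fold. The dashed lines apply to the mean, whereas the threshold asks for 2-fold against each control. In the right panel VIM (2.28) and FN1 (-1.12) lie beyond the lines but did not pass the threshold. No gene of the adhesion list passed the threshold upward in either labelled library, and the mesenchymal effectors spread to both sides with medians of -0.53 and 0.40.

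TGF-beta drives the transition in many epithelia. Of 14 measured genes of this pathway, 0 were higher and 4 lower in the library labelled MYC (median -0.36), and 2 were higher and 3 lower in the library labelled miR-105 (median -0.29). For all measured genes the shares past the threshold in either direction were 19.4% (median 0.04) and 31.3% (median 0.01), so the share of 5 in 14 in the second library is near that of all genes. The ligand TGFB2 had 1.23 CPM in the library labelled MYC and 29.8 CPM in the library labelled miR-105, against 116 CPM in GFP and 48.9 CPM in vector. INHBA, which encodes the activin subunit beta A, had 0.569 CPM in the library labelled MYC and 189 CPM in the library labelled miR-105, against 91.5 CPM in GFP and 37.2 CPM in vector. The receptor TGFBR2 had 157 CPM in the library labelled MYC and 378 CPM in the library labelled miR-105, against 1209 CPM in GFP and 725 CPM in vector. All 3 were lowest in the library labelled MYC. In the library labelled miR-105 TGFBI was 3.19-fold (3.12 to 3.26) above GFP, and TGFB1, TGFB3 and TGFBR3 were lower than both controls. The ligand TGFB1 itself was within 1.27-fold of both controls in the MYC-labelled library.

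Of 12 splicing regulators, SRSF1 was higher in both labelled libraries and PTBP1 in the library labelled miR-105, and none was lower by the threshold. SRSF1 had 331 CPM in the library labelled MYC and 555 CPM in the library labelled miR-105, against 157 CPM in GFP and 138 CPM in vector. The list's median was 0.51 in the library labelled MYC and 0.44 in the library labelled miR-105, against 0.04 and 0.01 over all measured genes, of which 9.03% and 14.7% were higher. Of 14 keratins, 1 was higher and 6 were lower in the library labelled MYC (median -0.89), and 3 were higher and 7 lower in the library labelled miR-105 (median -1.24). All measured genes had 9.03% higher and 10.4% lower in the first (median 0.04) and 14.7% higher and 16.6% lower in the second (median 0.01). KRT5, a basal keratin, had 4138 CPM and 4654 CPM in the libraries labelled MYC and miR-105, against 1614 CPM in GFP and 1757 CPM in vector. KRT80, KRT81 and KRT7 were the lowest relative to the controls in the library labelled MYC, KRT7 with 862 CPM there and 3383 CPM in the library labelled miR-105, against 4496 CPM in GFP and 5416 CPM in vector. KRT17 had 1777 CPM and 766 CPM in the libraries labelled MYC and miR-105, against 5131 CPM in GFP and 6927 CPM in vector, and KRT19 and KRT13 followed it in the library labelled miR-105. These 2 rest on few reads, KRT19 on 11 there against 99 in GFP and 183 in vector, and KRT13 on 2 against 35 and 31. Several keratins have near-identical copies, so their values are uncertain, since the handling of shared reads is not given.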

How the data were processed

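Poly(A) RNA of 4 MCF10A cultures was sequenced, 1 library per construct. Per the submitters' processing notes, TopHat2, edgeR and hg19 were used, without versions. Counter, annotation and strand option: not given in the sources used here. What the authors deposited is a depth-adjusted signal in the form of edgeR pseudo-counts, with totals of 9220845 to 10307368, and not whole counts. Inverting that adjustment at a common dispersion of 0.0553, with vector and GFP as 1 group, gave whole reads for 100% of 18859 values per library (largest relative residual 5.1e-10, tolerance 1e-05). The inversion was also run on simulated data made with the same adjustment and grouping, so that run could not check whether these hold. Of the lines, 19 exact repeats were dropped, and 1 symbol has differing lines.

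CPM used TMM-scaled totals (edgeR 4.0.16, R 4.3.3). Folds in the text are ratios of CPM, while log2 folds and thresholds used log2(CPM + 0.5), which understates low genes. Lengths are the merged exons of each gene in the basic set of GENCODE v29 (GRCh38), which may differ from the authors' gene models. No test was the main result. Count tests (edgeR quasi-likelihood, and DESeq2 1.42.0) with GFP and vector as replicates were alternatives with 1 residual degree of freedom, which compare these libraries and not the conditions. Tables and figures used Python 3.11.15.

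The members and lists were chosen with earlier results of these data known. Named from the lists are up to 3 genes per list, labelled library and direction with the largest folds past the threshold, and relatives of the members. EPCAM, MAL2, GATA3, SOX4, SLC37A2 and the marker genes outside that rule were named after their values were seen. Some items that these rules select are not reported here.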

Additional observations from a re-analysis of the deposited data

How the results depend on the processing

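There were 12 alternatives, of which the 2 count tests did not enter the recomputed member log2 folds. Changes of the filter or of the fold threshold cannot alter a log2 fold, so the folds under those settings were bound to stay as they were. With these included, 356 of 360 recomputed member log2 folds kept their sign, none past the threshold changed it, and 40 moved beyond counting error. The exceptions were SNAI2 (-0.03 by library totals alone, -0.10 against vector alone) and ZEB1 (0.12 against vector alone) in the library labelled miR-105, and ESRP2 (-0.14 against GFP alone) in the library labelled MYC. Of the 10 genes, the count in the library labelled miR-105 was 1, with 0 lower, at a filter of 5 CPM, at 4-fold and by DESeq2. It was 5 (2 higher, 3 lower) against GFP alone and 4 (2 higher, CDH2 and VIM, and 2 lower, FN1 and OVOL1) by edgeR with the controls as replicates. For the library labelled MYC, 3 were lower at 4-fold and 1 was higher by DESeq2, where VIM had an adjusted p of 0.12, while edgeR called the 7 genes of the threshold, VIM at an adjusted p of 3e-12. Over all measured genes, edgeR called 22.3% and DESeq2 14.0% in the library labelled MYC, and 39.1% and 26.8% in the library labelled miR-105. At 4-fold, GFP against vector had 1 gene, with 0 higher, and the library labelled MYC against that labelled miR-105 had 3, with 2 lower. Scaling by library totals alone moved the median of all genes in the library labelled MYC from 0.04 to 0.14, and against the library labelled miR-105 from -0.05 to 0.15. The cause of these shifts was not tested. No paired analysis was possible because each construct had 1 library. Low read numbers limit CDH2, ZEB1 and OVOL1, and the spread between cultures is unknown.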
